A study of Mus musculus with 8 samples.

Results

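The nuclear genes of oxidative phosphorylation, the respiratory chain and ATP synthase of the mitochondrion, were followed in embryonic forebrain of Gsx2 null and wild-type mice. They were taken by symbol: names that start with Nduf plus a, b, c, s or v and a digit, with Uqcr, with Cox plus a digit from 4 to 8, or with Atp5, together with Sdha, Sdhb, Sdhc, Sdhd, Cyc1 and Cycs. This gave 76 of the 12843 genes listed in the table. They comprise 33 genes of complex I, 4 of complex II, 9 of complex III, cytochrome c, 15 of complex IV, 12 of complex V, and the pair Atp5s and Atp5sl, whose products are not counted among the ATP synthase subunits. The rule itself uses names alone, but it was chosen with earlier results of these data known.

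Bulk RNA-seq had been made from the lateral ganglionic eminence (LGE), the ventral forebrain swelling that gives rise to striatal projection neurons and olfactory bulb interneurons, at E12.5 (embryonic day). The 4 Gsx2 null libraries carried the genotype Gsx2EGFP/Gsx2RA, and the 4 libraries of the other group were labelled wild type; both came from crosses between carriers of either allele, and embryos were typed from tail tissue. Gsx2 is a homeobox factor of LGE progenitors. The sources used here do not give what each allele keeps of the gene, nor how many embryos went into a library. The p-values therefore reflect spread among these libraries alone, which may be technical. Libraries are named here by the number in their column name (null 5, 6, 11 and 12; wild type 1, 2, 7 and 8), which is in no label and identifies no single sample.

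Depth was taken as the reads in the 12843 listed genes, recovered from the RPKM values, and is not the full read number of a library. It ran from 16066546 to 18019214 reads per null library and from 16031458 to 17512888 per wild-type library. Gsx2 itself had RPKM (read density per kilobase, relative to the library's total) of 50.04, 49.1, 57.6 and 64.2 in null libraries 5, 6, 11 and 12, against 22.1, 21.4, 26.0 and 24.6 in wild-type libraries 1, 2, 7 and 8. The targeted gene was thus higher in every null-labelled library, and without the structure of the alleles it does not check the labels. Markers are counted as rising or falling where limma, described below, called them (adjusted p under 0.05). It called 13.8% of all genes tested higher in the null and 14.6% lower. Of 12 LGE markers 10 fell and 1, Gsx2, rose in the null. Dlx1 fell to 16.1 ± 4.36 RPKM in the null, against 173 ± 11.3 in the wild type (SD, n = 4 each). All 8 pallial markers and 6 of 9 tested neuronal markers rose, and all 11 cell cycle markers fell. Summed RPKM of the cell cycle markers ran from 504 to 595 in the null and from 736 to 806 in the wild type, and that of the neuronal markers from 1070 to 1277 in the null and from 909 to 1066 in the wild type. Summed RPKM of red blood cell markers was 1233 to 1770 in the null and 1276 to 2260 in the wild type, with none called. In bulk tissue, fewer cells of a type and less RNA per cell cannot be told apart, and the part of cell makeup in the values below was not tested.

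Electrons from NADH enter the chain at complex I and those from succinate at complex II. Complex III passes them to cytochrome c, complex IV hands them to oxygen, and the proton gradient built on the way drives complex V, the ATP synthase. Most subunits are nuclear genes, and their products are joined in the inner membrane with a few subunits encoded in mitochondrial DNA, which were not analysed here. Many of these nuclear promoters are TATA-less and are known targets of nuclear respiratory factor 1 (Nrf1), of GA-binding protein (an ETS factor made of Gabpa and Gabpb1) and of Yy1, with coactivators of the Ppargc1a family acting on them.

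Promoter windows from RefSeq (GRCm38.p6, 250 bases before to 50 after the annotated start) were matched by symbol for 62 of the 76 genes. Shown are those of the most highly expressed gene of each complex with a motif of Nrf1, ETS or Yy1, as examples of what such promoters look like. Capitals mark the motif, which in Uqcrh, Cox6b1 and Atp5g3 reads as searched on the opposite strand. The Ndufb7 window also holds the letters TATAAA once, left in lower case, on the opposite strand and far upstream of the start. Ndufb7, a complex I subunit, lies at chr8:83566508-83566807 (plus strand). Sdhb, the iron-sulphur subunit of complex II, is at chr4:140961021-140961320 (plus strand). Uqcrh, the hinge protein of complex III, is at chr4:116075021-116075320 (minus strand). Cox6b1, a complex IV subunit, is at chr7:30626065-30626364 (minus strand). Atp5g3, which encodes the membrane ring subunit c of ATP synthase, is at chr2:73911277-73911576 (minus strand).
Ndufb7: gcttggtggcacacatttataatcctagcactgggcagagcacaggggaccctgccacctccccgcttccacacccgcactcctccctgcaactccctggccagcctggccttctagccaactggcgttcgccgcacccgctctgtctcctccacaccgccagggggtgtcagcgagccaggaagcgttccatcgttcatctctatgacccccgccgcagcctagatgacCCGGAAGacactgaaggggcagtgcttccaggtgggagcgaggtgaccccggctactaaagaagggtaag
Sdhb: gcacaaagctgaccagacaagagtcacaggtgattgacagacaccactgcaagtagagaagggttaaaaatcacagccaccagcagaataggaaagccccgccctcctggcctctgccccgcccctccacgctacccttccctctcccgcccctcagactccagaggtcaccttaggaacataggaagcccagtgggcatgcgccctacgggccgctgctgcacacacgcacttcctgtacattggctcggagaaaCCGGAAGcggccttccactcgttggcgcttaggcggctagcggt
Uqcrh: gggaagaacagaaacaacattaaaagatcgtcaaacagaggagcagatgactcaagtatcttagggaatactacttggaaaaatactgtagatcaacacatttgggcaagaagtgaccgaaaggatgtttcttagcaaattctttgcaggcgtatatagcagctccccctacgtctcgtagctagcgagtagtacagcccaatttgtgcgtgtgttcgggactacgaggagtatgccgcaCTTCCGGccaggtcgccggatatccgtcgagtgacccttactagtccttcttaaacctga
Cox6b1: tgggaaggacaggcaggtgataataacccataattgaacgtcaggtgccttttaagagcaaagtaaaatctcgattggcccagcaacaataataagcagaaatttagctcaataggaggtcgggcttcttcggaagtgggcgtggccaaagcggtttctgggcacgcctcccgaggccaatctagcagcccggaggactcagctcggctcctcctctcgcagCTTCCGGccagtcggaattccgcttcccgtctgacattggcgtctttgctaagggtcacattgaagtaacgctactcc
Atp5g3: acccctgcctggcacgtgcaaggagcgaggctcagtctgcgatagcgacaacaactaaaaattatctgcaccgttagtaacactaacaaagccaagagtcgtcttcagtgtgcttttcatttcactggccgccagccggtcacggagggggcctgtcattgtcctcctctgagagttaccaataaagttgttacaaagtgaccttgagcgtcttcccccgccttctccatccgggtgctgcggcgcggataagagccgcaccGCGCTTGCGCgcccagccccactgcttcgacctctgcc

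The first 4 windows hold the ETS letters and that of Atp5g3 the Nrf1 letters. Over all member windows, searched on both strands and with overlaps allowed, the Nrf1 motif (GCGCA, any base, then GCGC) was present in 16 of 62 (25.8%), against 12.52% of the 8754 tested genes with a window and 5.19% of all 27025 windows. The ETS motif CCGGAAG was present in 15 of 62 (24.2%), against 21.3% of tested genes and 9.93% of all windows. The Yy1 motif AAGATGGCG was present in 8 of 62 (12.9%), against 3.83% and 1.64%. The letters TATAAA stood in 4 of 62 (6.45%), against 7.79% and 15.7%. A match is a description of the window and not a site of binding.

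Levels ranged widely between the genes and little between the genotypes. Complex V genes were the highest, with mean RPKM over the 8 libraries from 39.98 to 482 and a median of 117, and complex IV genes had a median of 81.8. Complex II genes lay between 46.96 and 80.7 RPKM and complex III genes between 26.7 and 110. Complex I genes were lower, with a median of 42.9 and a range from 9.38 to 91.3. The plot of mean levels by complex shows the ladder within each. At its foot stand isoforms known from other tissues, Cox7a1, Cox4i2, Cox6b2 and Ndufa4l2, and also Cox7c and Cycs, which every cell uses.

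**Figure D1:**
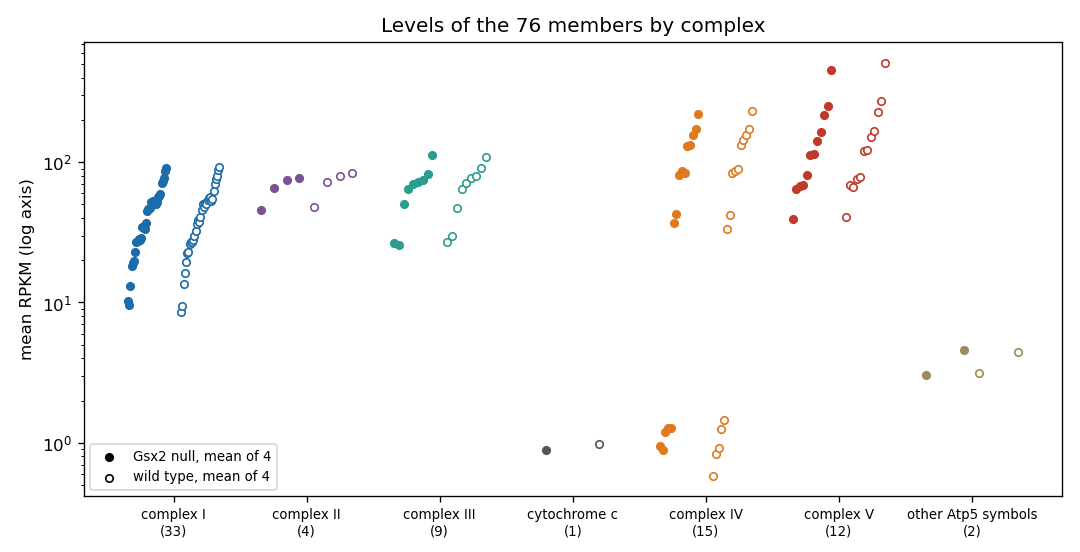
Mean RPKM of the 76 genes on a log axis, grouped by complex with the number of genes in brackets; filled points are means of the 4 Gsx2 null libraries and open points means of the 4 wild-type libraries. Each complex spans much the same range in both genotypes, with Atp5b highest at 456 in the null and 509 in the wild type.

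Cox7c and Cycs share part of their sequence with other genes. Reads were 51 bases long, and 52.9% of the 51-base windows of the Cox7c principal transcript (GENCODE vM21) occur in other genes, all of them pseudogenes; Cox7c had 6 to 15 reads per library. Of Cycs windows 28.4% occur elsewhere, and it had 51 to 76 reads. Windows shared with other genes made up over 20% in 12 of the 76, led by Atp5h at 66.1% and Atp5o at 62.7%, while 46 shared none. The median of mean RPKM was 24.4 over those 12 and 55.3 over the 46, but sharing did not always go with a low level: Atp5o had a mean of 116.5 RPKM and Atp5h one of 39.98. The sources used here do not give how the authors treated reads with several matches, so the levels of these 12 genes are uncertain. Levels also depend on the counted bases, the gene length that RPKM divides by. These exceed the principal transcript in some members (3545 against 545 in Ndufa11, 3088 against 680 in Ndufb8) and fall short of it in others (1571 against 3171 in Sdhc). Rankings of genes and complexes by RPKM are therefore approximate.

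RNA of the oxidative phosphorylation genes differed little between Gsx2 null and wild-type tissue, and none of the tested genes passed the threshold in the fit described next. Genotypes were compared with limma on log2(RPKM + 1), fitted over the 11395 genes whose mean RPKM reached 1 in the null or the wild type. Differences are null minus wild type, and the threshold was an adjusted p of 0.05 (Benjamini-Hochberg over all genes tested). Of the 76 genes 73 were tested, and Cox4i2, Cox7a1 and Cycs were too low. Of the 73, 0 passed in either direction, against 28.5% of all genes tested (13.8% higher and 14.6% lower in the null). At an unadjusted p under 0.05 stood 2 of the 73, Ndufs5 and Atp5b, and the smallest adjusted p was 0.122. Null and wild-type libraries did not overlap for 1 gene of 73, Atp5b, against 30.9% of all genes tested.

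The differences were small as well as uncalled. Their median was -0.03 on the log2 scale, beside -0.01 over all genes tested, with 24 positive and 49 negative. The median absolute difference was 0.06, beside 0.12 over all genes. The extremes were Ndufs5 at 0.23 and Ndufs6 at -0.22. All 73 intervals (95%, from limma, on the log2(RPKM + 1) scale, which understates the change of low genes) lay within a 1.5-fold change either way, and 68 lay within 1.3-fold. The interval reaching lowest was that of Ndufs6 at -0.52 and the one reaching highest that of Cox7c at 0.53. Summed over the 76 genes, RPKM was 4693, 4680, 5690 and 5708 in null libraries 5, 6, 11 and 12, against 5851, 4899, 5395 and 5396 in wild-type libraries 1, 2, 7 and 8. The sums overlapped, with means of 5193 ± 585 in the null and 5386 ± 389 in the wild type (SD, n = 4 each).

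**Figure D2:**
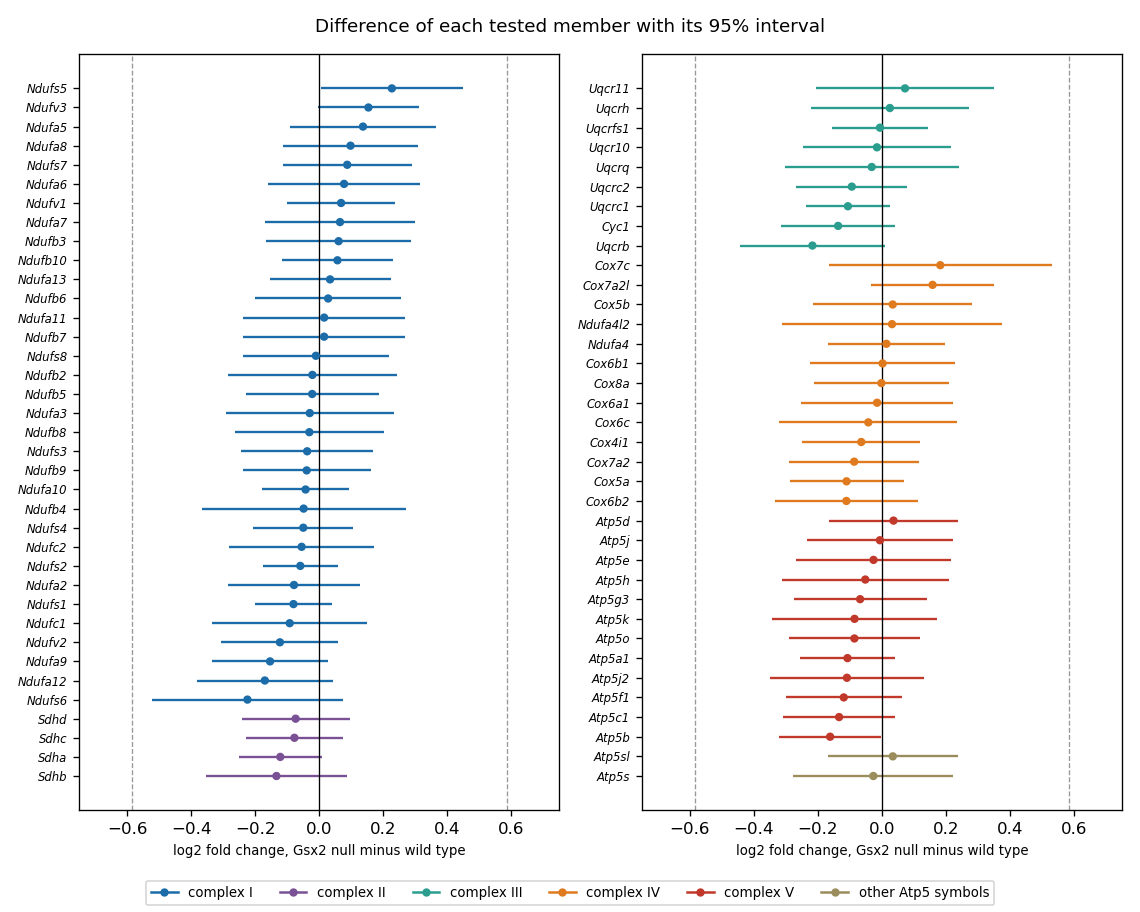
Log2 fold change (null minus wild type) of the 73 tested genes with 95% intervals from limma, coloured by complex; dashed lines mark a 1.5-fold change either way. Every interval lies inside the dashed lines, and the points run from -0.22 (Ndufs6) to 0.23 (Ndufs5).

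Complex I, the NADH dehydrogenase, had 14 positive and 19 negative differences with a median of -0.02. Its 7 core subunits, which carry the flavin and the iron-sulphur clusters, had a median of -0.04 and its 26 supernumerary subunits one of -0.02. Ndufb9, a supernumerary subunit of the membrane arm (chr15:58933756-58939488), had the highest level, with 81.8, 79.7, 101.9 and 97.1 RPKM in null 5, 6, 11 and 12, against 100.4, 83.2, 90.4 and 95.5 in wild type 1, 2, 7 and 8. Ndufa3, another supernumerary subunit (chr7:3617373-3620327), had 80.2, 70.1, 94.5 and 102.6 RPKM in the null, against 101.6, 78.3, 86.1 and 86.6 in the wild type. In both genes the lowest libraries were null 5, null 6 and wild type 2, and the genotypes overlapped (log2 fold change -0.04 ± 0.09 SE for Ndufb9 and -0.03 ± 0.12 for Ndufa3, limma adjusted p = 0.780 and 0.878).

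Ndufs5 and Ndufs6, supernumerary subunits singled out after their values were seen, stood at the ends of the complex I range. Ndufs5 (chr4:123712710-123718202) had 8.92, 8.76, 11.7 and 11.6 RPKM in the null, against 9.13, 8.12, 7.67 and 9.24 in the wild type (log2 fold change 0.23 ± 0.10 SE, limma adjusted p = 0.122). Null 11 and 12 were above all wild-type libraries and null 5 and 6 among them. Its transcript shares 40.8% of its windows with the pseudogene BC002163, which had 5.03, 4.99, 6.59 and 6.40 RPKM in the null and 5.23, 4.52, 4.45 and 5.07 in the wild type. Ndufs6 (chr13:73319838-73328542) had 31.6, 25.8, 42.9 and 34.3 RPKM in the null, against 45.2, 35.2, 38.2 and 37.5 in the wild type (log2 fold change -0.22 ± 0.13 SE, limma adjusted p = 0.245). Only null 11 reached into the wild-type range, and without it Ndufs6 was called lower (-0.35 ± 0.11 SE, adjusted p = 0.0424, where 26% of all genes were called).

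All 4 differences of complex II, succinate dehydrogenase, were negative and none passed, with a median of -0.10 and a smallest adjusted p of 0.149. Sdhb had 66.9, 68.1, 82.1 and 91.5 RPKM in null 5, 6, 11 and 12, against 91.5, 77.4, 84.6 and 83.1 in wild type 1, 2, 7 and 8 (log2 fold change -0.13 ± 0.10 SE, limma adjusted p = 0.352). Sdhc, a membrane anchor, had 68.7, 71.1, 82.7 and 77.6 RPKM in the null, against 84.4, 74.1, 81.1 and 76.97 in the wild type (-0.08 ± 0.07 SE, adjusted p = 0.431). In both genes null 5 and 6 lay below all wild-type libraries and null 11 and 12 among them.

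Of the 9 complex III genes 2 differences were positive and 7 negative, with a median of -0.03. Uqcrh had 97.8, 93.8, 127.4 and 128.2 RPKM in the null, against 121.2, 99.5, 107 and 108.2 in the wild type (log2 fold change 0.03 ± 0.11 SE, limma adjusted p = 0.890). Cyc1, which encodes cytochrome c1 (chr15:76343523-76346260), had 74.97, 73.97, 89.3 and 92.6 RPKM in the null, against 95.3, 84.0, 90.8 and 92.6 in the wild type (-0.14 ± 0.08 SE, adjusted p = 0.240). Null 5 and 6 were again the low libraries. Uqcrb, a subunit near the quinone site picked after its values were seen, had 22.8, 22.5, 27.0 and 30.2 RPKM in the null, against 31.9, 26.2, 28.4 and 33.1 in the wild type (-0.22 ± 0.10 SE, adjusted p = 0.144). It was called lower without null 12 (-0.30 ± 0.09 SE, adjusted p = 0.0442, where 24.6% of all genes were called), and it shares 42.5% of its windows with 4 pseudogenes. Cycs, the soluble electron carrier cytochrome c, had 0.861, 0.758, 0.990 and 0.915 RPKM in the null, against 1.12, 1.12, 0.827 and 0.868 in the wild type.

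Complex IV, cytochrome c oxidase, had 6 positive and 7 negative differences with a median of -0.0015. Cox4i1, the common isoform of subunit 4 (chr8:120668222-120674207), had 202.2, 206.9, 240.3 and 239.5 RPKM in null 5, 6, 11 and 12, against 248.5, 205, 235.8 and 239.8 in wild type 1, 2, 7 and 8 (log2 fold change -0.06 ± 0.08 SE, limma adjusted p = 0.603). Cox6b1 had 159.7, 152, 194.7 and 188.3 RPKM in the null, against 202, 154, 167.4 and 169.9 in the wild type (0.0022 ± 0.10 SE, adjusted p = 0.989). The genotypes overlapped throughout in both genes. Ndufa4, a complex IV subunit despite its symbol, had 156.9 ± 16.5 RPKM in the null and 155 ± 10.6 in the wild type (SD, n = 4 each).

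Several complex IV subunits exist as isoforms that are exchanged between tissues, and a change of isoform would show in their ratio even where the total is steady. In 5 pairs both genes were listed. Cox7a2l (chr17:83501918-83517330), whose product tethers complex III to complex IV in supercomplexes, had 32.6, 36.2, 40.2 and 39.5 RPKM in the null, against 38.7, 31.5, 32.2 and 30.4 in the wild type. Cox7a2 (chr9:79755361-79759878), its common relative within complex IV, had 75.96, 73.6, 95.3 and 92.5 RPKM in the null, against 96.0, 81.1, 91.3 and 88.3 in the wild type. The log2 ratio of Cox7a2l to Cox7a2 was -1.22, -1.02, -1.24 and -1.23 in the null, against -1.31, -1.37, -1.50 and -1.54 in the wild type. Every null library thus lay above every wild-type library, although neither gene passed on its own (limma adjusted p = 0.203 for Cox7a2l and 0.521 for Cox7a2). The ratio differed by 0.25 on the log2 scale, with p = 0.0286 in the two-sided exact permutation test, the smallest its 70 splits allow. After Benjamini-Hochberg adjustment over the 5 pairs it was 0.0714 and did not pass. At that smallest p no pair could pass the adjustment on its own, so the adjusted value cannot decide whether the ratio differed. Without wild type 1, Cox7a2l on its own was called higher (0.23 ± 0.07 SE, limma adjusted p = 0.0455, where 25.8% of all genes were called). Of Cox7a2l windows 19.6% occur in a pseudogene, Gm6969.

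Cox7a1, the heart and skeletal muscle isoform, was low, with 7, 6, 9 and 9 reads in null 5, 6, 11 and 12, against 4, 4, 6 and 5 in wild type 1, 2, 7 and 8. Its log2 ratio to Cox7a2 was -6.48 ± 0.12 in the null and -7.27 ± 0.26 in the wild type (SD, n = 4 each). The exact permutation p of 0.0286, the adjusted p of 0.0714 and the limit of the test were the same. Without the filter on low values Cox7a1 was called higher (0.30 ± 0.09 SE, limma adjusted p = 0.0328, where 25.9% of all genes were called). None of the 5 muscle markers was listed. Cox4i2, the lung isoform, had 9 to 23 reads in the null and 10 to 19 in the wild type, and its ratio to Cox4i1 differed by 0.07 (exact permutation p = 0.800). Cox6b2, the testis isoform, had 13 to 20 reads in the null and 17 to 25 in the wild type (ratio to Cox6b1 different by -0.20, exact permutation p = 0.429). Ndufa4l2, an isoform induced by low oxygen, had 21 to 33 reads in the null and 18 to 46 in the wild type (ratio to Ndufa4 different by 0.08, exact permutation p = 0.857). At this depth no statement on the size of a difference in these isoforms can be made beyond those values.

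In complex V 11 of 12 differences were negative, with a median of -0.09, and none passed. Atp5b (chr10:128083273-128090391) encodes the catalytic beta subunit and had the highest level of all 76 genes. It had 422.3, 424.5, 490.1 and 485.3 RPKM in null 5, 6, 11 and 12, against 534.4, 491.7, 509.9 and 498.8 in wild type 1, 2, 7 and 8. All null libraries were below all wild-type libraries, null 11 by the smallest distance (log2 fold change -0.16 ± 0.07 SE, limma adjusted p = 0.123). Its call depended on how libraries were scaled: adjusted p was 0.0348 with TMM factors (31.9% of all genes called), 0.0347 with median-of-ratios factors (31.8%), 0.0403 with upper quartile scaling (31.4%), 0.0426 with total reads (31.4%) and 0.0207 with limma voom on recovered reads (32.2%). In the authors' deposited table Atp5b was the only one of the 76 genes called, at a log2 fold change of -0.15 and an FDR of 0.0368, where 27.6% of the listed genes were called. Atp5a1, the alpha subunit, had 232.3, 239.5, 266.7 and 274.4 RPKM in the null, against 283.5, 265.9, 274.7 and 265.1 in the wild type (-0.11 ± 0.07 SE, adjusted p = 0.264). Only null 5 and 6 were below the wild type there.

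Atp5s and Atp5sl were low and overlapped. Atp5s, the coupling factor B of the synthase, had 3.04 ± 0.26 RPKM in the null and 3.15 ± 0.67 in the wild type, and Atp5sl, also known as Dmac2 and tied to complex I assembly, had 4.602 ± 0.63 RPKM in the null and 4.46 ± 0.46 in the wild type (SD, n = 4 each). Their differences were -0.03 ± 0.11 and 0.03 ± 0.09 (log2, SE).

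Across libraries the genes moved together. In null 5 and null 6 the median deviation of the 73 genes from their own mean was -0.15 and -0.17 (log2), with 4 and 3 genes above their mean. In null 11 and 12 it was 0.13 in each, with 69 and 66 above. In wild type 1 it was 0.14 (69 above), in wild type 2 it was -0.135 (10 above), and in wild type 7 and 8 it was 0.02 and 0.03. In each of complexes I to V null 5 and 6 were negative and null 11 and 12 positive. Wild type 2 varied more, with -0.16 in complex I, the lowest library there, and -0.0080 in complex II. The pairs of null libraries were thus farther from each other than the genotype means were. The median SD within a genotype was 0.158 per gene, against 0.0964 over all genes tested, and it was 0.0707 once each library's median over the members was subtracted.

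**Figure D3:**
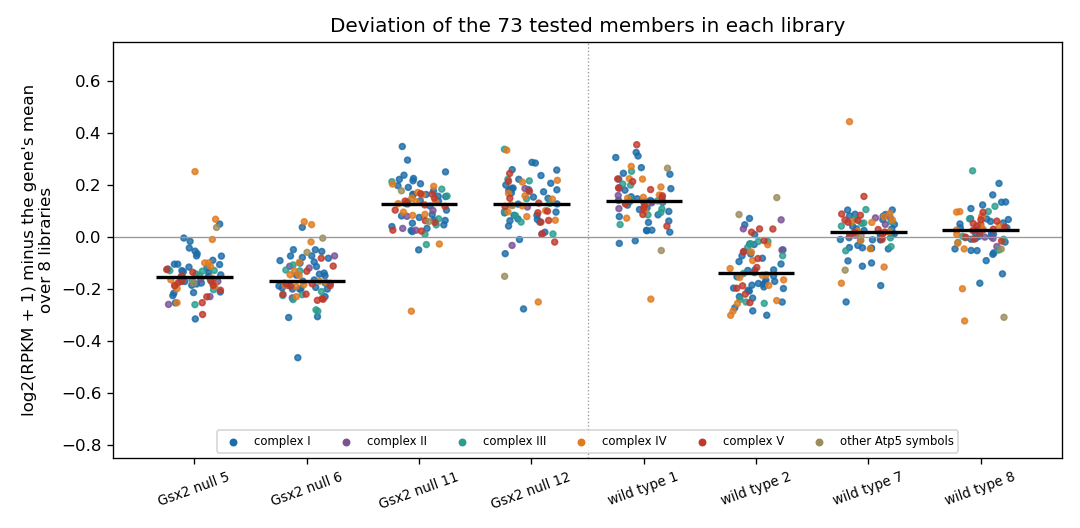
Deviation of each of the 73 tested genes from its own mean over the 8 libraries, log2(RPKM + 1), by library and coloured by complex; black bars are medians. The medians are -0.15 and -0.17 in null 5 and 6, 0.13 in null 11 and 12, 0.14 in wild type 1, -0.135 in wild type 2, and 0.02 and 0.03 in wild type 7 and 8.

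This pattern was shared with other short genes. The members have a median of 1007 counted bases, against 4069 over all genes tested. The 150 other genes of up to 1200 bases with a mean RPKM above 30 had median deviations of -0.15, -0.16, 0.12 and 0.14 in null 5, 6, 11 and 12, against 0.12, -0.13, 0.02 and 0.02 in wild type 1, 2, 7 and 8. Among genes above 8000 bases the medians were 0.02, 0.04, -0.0036 and -0.00099 in the null, against -0.05, 0.01, 0.0020 and -0.02 in the wild type. Ribosomal protein genes of the mitochondrion had -0.17, -0.14, 0.06 and 0.07 in the null and 0.15, -0.05, 0.04 and 0.02 in the wild type. What sets the libraries apart by gene length was not tested.

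**Figure D4:**
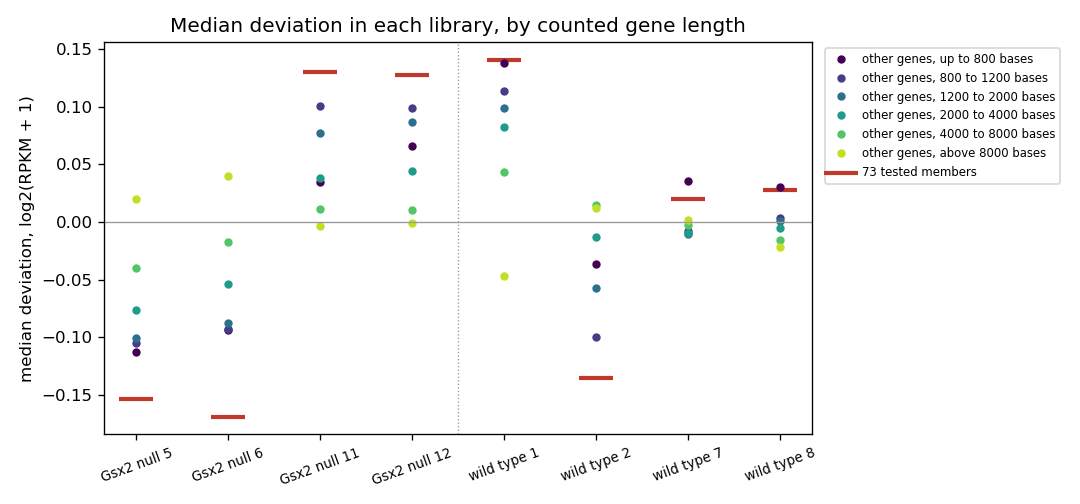
Median deviation in each library, log2(RPKM + 1), for the 73 tested members (red bars) and for other tested genes in bins of counted gene length (points, from up to 800 to above 8000 bases). Bars and the points of genes up to 1200 bases lie on the same side of 0 in each library except wild type 7, where the points from 800 to 8000 bases are just under 0.

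The genotypes were also compared within the libraries of lower and of higher column number. Among libraries 1, 2, 5 and 6 the median difference of the 73 genes was -0.18, with 0 called higher and 1 lower, Atp5f1, against 6.7% and 10.7% of all genes. Among libraries 7, 8, 11 and 12 it was 0.10, with 15 higher and 0 lower, against 16.8% and 9.2%. The 15 included Uqcrh (0.25), Cox6b1 (0.18), Cox7a2l (0.34) and Ndufa3 (0.19). The difference between the sets, tested as an interaction, was positive for 70 of 73 genes with a median of 0.26; none passed (0.0176% of all genes did), and 33 were at an unadjusted p under 0.05, against 19.1% of all genes. Null 11 and 12 over null 5 and 6 differed by a median of 0.28 with none called (0.193% of all genes, smallest limma adjusted p of the members 0.0695). At an unadjusted p under 0.05 stood 60 of the 73 there, against 25.5% of all genes. Wild type 7 and 8 over 1 and 2 differed by -0.0032, also with none called (0.0263% of all genes). There 3 of the 73 were at an unadjusted p under 0.05, against 13.4% of all genes. The numbers are in no label, so the sets cannot be tied to a batch.

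With the trend on gene length taken out of each library, a step added after the data were seen, the median SD within a genotype was 0.0782 and 9 of 73 genes passed (12.3%), against 35.3% of all genes. Those higher in the null were Ndufs5 (0.24 ± 0.06 SE, adjusted p = 0.00988), Ndufv3 (0.17 ± 0.05, 0.0192), Cox7a2l (0.17 ± 0.05, 0.0262) and Ndufa5 (0.15 ± 0.05, 0.0403). Those lower were Atp5b (-0.14 ± 0.03, adjusted p = 0.00986), Uqcrb (-0.21 ± 0.05, 0.0139), Cox5a (-0.10 ± 0.03, 0.0153), Cyc1 (-0.12 ± 0.04, 0.0343) and Ndufa12 (-0.16 ± 0.06, 0.0469). They come from complexes I, III, IV and V and hold no subunit of complex II. The median over the 73 was then -0.01. Centred instead on the members' own median in each library, also an added step, 0 of 73 were higher and 0 lower, against 9.55% and 6.7% of all genes.

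Calls were found among regulators of mitochondrial gene expression, some of which act on the nuclear genes and others on mitochondrial DNA or RNA. Of 18 tested genes of mitochondrial gene expression and biogenesis, 8 fell and 1 rose, with a median of -0.14, against 14.6% lower and 13.8% higher over all genes tested. Pprc1, a coactivator of the PGC-1 family, fell to 11.1, 10.3, 10.9 and 10.4 RPKM in null 5, 6, 11 and 12, against 13.9, 13.9, 15.2 and 14.1 in wild type 1, 2, 7 and 8 (log2 fold change -0.39 ± 0.05 SE, limma adjusted p = 0.000318). Ppargc1a, PGC-1 alpha itself, rose to 2.06, 2.41, 2.22 and 2.40 RPKM in the null, against 1.39, 1.70, 1.24 and 1.47 in the wild type (0.42 ± 0.08 SE, adjusted p = 0.00315). The genotypes did not overlap in either coactivator, and they moved in opposite directions.

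The factors whose motifs were searched above were all lower. Gabpb1 fell to 10.7, 10.4, 11.2 and 10.8 RPKM in the null, against 12.7, 12.96, 13.1 and 13.1 in the wild type (-0.25 ± 0.04 SE, adjusted p = 0.00198). Its partner Gabpa fell by 0.16 ± 0.05 (log2, SE; adjusted p = 0.0458). Nrf1 had 11.4, 12.4, 12.9 and 12.6 RPKM in the null, against 14.4, 14.1, 15.4 and 13.6 in the wild type (-0.21 ± 0.05 SE, adjusted p = 0.0164). Yy1 had 33.98, 37.03, 37.6 and 37.2 RPKM in the null, against 40.1, 40.6, 41.7 and 40.8 in the wild type (-0.16 ± 0.05 SE, adjusted p = 0.0247). No null library reached the wild-type range in these 4 genes. Also lower were Lrpprc (-0.25), which stabilises mitochondrial mRNAs, Twnk (-0.19), the mitochondrial DNA helicase, and Tfam (-0.16), the packaging and transcription factor of mitochondrial DNA. All but Pprc1, Gabpb1 and Ppargc1a were singled out after their values were seen.

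These regulator calls were near the threshold in part. Without null 5 or without wild type 7, 4 of the 18 were called lower, where 23.0% and 21.7% of all genes were called in either direction. Without null 12, wild type 1 or wild type 2 it was 5, where 24.6%, 25.8% and 24.15% of all genes were called. Pprc1, Gabpb1, Nrf1, Lrpprc and Ppargc1a were called each time a library was left out. With every library centred on the members' median, only Pprc1 and Ppargc1a passed. That step also lowered the share called over all genes, to 16.2% from 28.5%. Cell cycle genes were lower in the same libraries, and their part in these values was not tested.

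**Figure D5:**
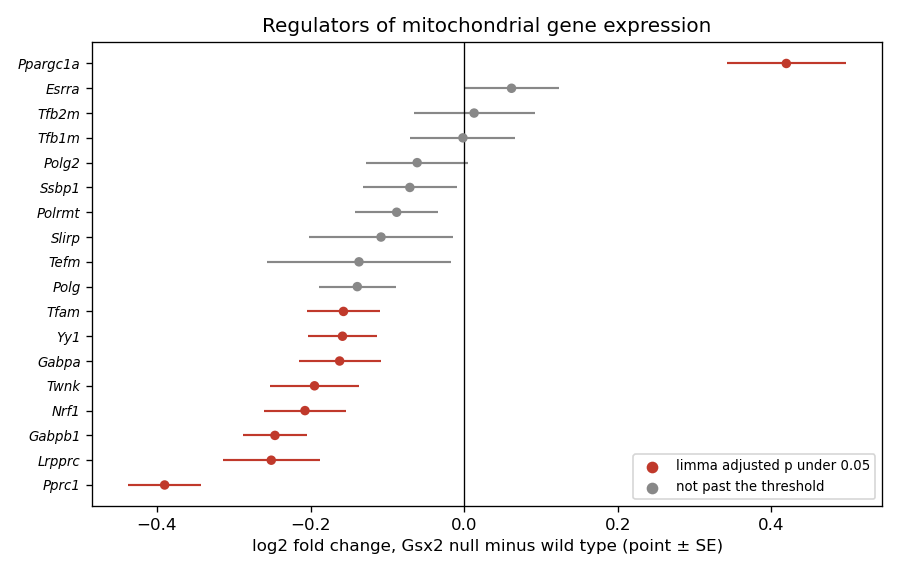
Log2 fold change (null minus wild type, points) with SE (bars) of the 18 tested regulators of mitochondrial gene expression; red marks an adjusted p under 0.05. Ppargc1a stands alone to the right at 0.42, and 8 genes from Tfam (-0.16) to Pprc1 (-0.39) lie to the left.

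Differences were also set beside the promoter motifs. The 16 tested with the Nrf1 motif had a median difference of -0.06, the 15 with the ETS motif -0.01, the 8 with the Yy1 motif -0.07, the 4 with TATAAA 0.04, and the 25 with none of the 4 motifs -0.02. These medians are a description over few genes, and differences between them were not tested.

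Other parts of energy metabolism were counted in the same fit. Of 6 further subunits and small regulators of the complexes none passed; Higd2a, of complex IV, had 43.9 ± 6.76 RPKM in the null and 35.7 ± 2.03 in the wild type (SD, n = 4 each; log2 fold change 0.28 ± 0.10 SE, limma adjusted p = 0.0551). Its genotypes did not overlap, and with the length trend removed it was called higher (0.29, adjusted p = 0.00107). Of the 6, 1 was also called higher with each other library scaling, with voom, centred on the members, with the term for column numbers, and without null 5 or null 6, and 2 were in libraries 7, 8, 11 and 12 alone. Of 49 tested assembly factors 2 rose and 3 fell, with a median of -0.02. Pet117, an assembly factor of complex IV, fell to 5.78, 5.23, 5.96 and 4.93 RPKM in the null, against 9.62, 10.04, 7.86 and 9.12 in the wild type (log2 fold change -0.65 ± 0.08 SE, limma adjusted p = 0.000336). Ecsit, of complex I assembly, fell by 0.21 ± 0.07 (adjusted p = 0.0360) and Uqcc3, of complex III assembly, rose by 0.39 ± 0.12 (adjusted p = 0.0391). Without null 11, wild type 2 or wild type 7 none rose, without null 6, null 12, wild type 1 or wild type 8 only 1 did, and without null 5 it was 3. Only 1 fell without null 6, wild type 1 or wild type 7, and 2 without any other library.

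Of 13 tested mitochondrial carriers and channels 3 fell and none rose. Slc25a12, the aspartate-glutamate carrier of the malate-aspartate shuttle known from neurons, fell to 15.98, 16.3, 16.1 and 17.3 RPKM in null 5, 6, 11 and 12, against 28.8, 27.4, 31.2 and 29.5 in wild type 1, 2, 7 and 8 (log2 fold change -0.80 ± 0.05 SE, limma adjusted p = 5.8e-06). Its relative Slc25a13 fell to 6.34, 7.58, 7.45 and 8.32 RPKM in the null, against 12.1, 12.4, 12.4 and 11.7 in the wild type (-0.65 ± 0.07 SE, adjusted p = 0.000158). No null library came near the wild-type range in either gene. Of the 13, 10 did not pass. The count lower was 3 under every alternative run, while 3 were called higher with the length trend removed and in libraries 7, 8, 11 and 12 alone, and 1 with TMM, median-of-ratios or upper quartile scaling, centred on the members, or without wild type 1. Of all genes 17.6% were higher with the length trend removed and 16.8% in libraries 7, 8, 11 and 12.

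Of 16 genes of the citric acid cycle and pyruvate entry 3 fell and none rose: Suclg2 (-0.33 ± 0.07 SE, limma adjusted p = 0.00540), a succinyl-CoA ligase subunit, Idh3a (-0.25 ± 0.06, 0.00956), of isocitrate dehydrogenase, and Cs (-0.15 ± 0.05, 0.0497), citrate synthase. The call of Cs was lost without any 1 library other than null 11. Of the 16, 5 were lower with each other library scaling, with voom and with the length trend removed, against 15.3% to 17.7% of all genes. Centred on the members 1 was lower and in libraries 7, 8, 11 and 12 alone 0, against 6.7% and 9.2% of all genes. With the filter of 5 RPKM, which left out Suclg2, 1 of 15 was lower. Of 20 tested genes of glycolysis and lactate transport 3 rose and 2 fell. Ldhb, the lactate dehydrogenase subunit favoured in oxidative tissue, rose to 111.4, 120.3, 143.9 and 131.1 RPKM in the null, against 92.1, 72.0, 74.9 and 82.4 in the wild type (0.65 ± 0.09 SE, adjusted p = 0.000813). Hk1, hexokinase 1, rose to 15.2, 14.9, 15.6 and 15.8 RPKM in the null, against 12.95, 12.9, 10.3 and 11.5 in the wild type (0.35 ± 0.07 SE, adjusted p = 0.00448). No library overlapped in either gene. Slc16a1, a lactate transporter, fell by 0.39 ± 0.07 (adjusted p = 0.00209). Without wild type 1 the glycolysis count was 6 higher and 2 lower.

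Of 9 tested genes of the hypoxia response Ndrg1 (1.00 ± 0.19 SE, limma adjusted p = 0.00330) and Egln3 (0.43 ± 0.09, 0.00670) rose and Hk2 (-0.20 ± 0.05, 0.0178), also among the glycolysis genes, fell. Of 24 tested mitochondrial import genes 4 fell, led by Hspa9 (-0.27 ± 0.07, 0.0200), Timm23 (-0.30 ± 0.09, 0.0312) and Hspd1 (-0.24 ± 0.07, 0.0334). Timm23 was very low, with a mean of 0.629 RPKM in the null. It was tested only because its wild-type mean just reached the filter of 1 RPKM. With the filter of 5 RPKM, which left out Timm23, 3 of 23 import genes were lower. No import gene was called without null 6 or wild type 1. The count was 1 without null 5 or wild type 7, and 2 without wild type 2 or wild type 8. Of 76 tested mitochondrial ribosomal protein genes 4 fell, with a median of -0.09, and 7 fell without null 11; with the length trend removed 13 fell and 1 rose. Mrps18b fell by 0.30 ± 0.07 (adjusted p = 0.00893), Mrps27 by 0.26 ± 0.06 (0.0145) and Mrps28 by 0.29 ± 0.08 (0.0175). Of 61 tested cytosolic ribosomal protein genes Rpl12 and Rps6 fell, both low in RPKM, with 4 falling without null 11 and 1 without null 6 or wild type 1. The share called was 50% of the regulators, 33.3% of the hypoxia genes, 25% of the glycolysis genes, 23.1% of the carriers and channels, 18.8% of the citric acid cycle genes, 16.7% of the import genes, 10.2% of the assembly factors, 5.26% of the mitochondrial and 3.28% of the cytosolic ribosomal protein genes, and 0 of the further subunits, beside 28.5% of all genes tested; these differences were not tested.

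Counts in these lists also moved with the scaling and the libraries used. The counts above with single libraries left out stand beside a share over all genes that fell as well. In either direction it ran from 21.7% (without wild type 7) to 26.0% (without null 11), against 28.5% with all libraries. In libraries 7, 8, 11 and 12 alone 7 of 49 assembly factors and 7 of 20 glycolysis genes were higher. So were 6 of 76 mitochondrial and 4 of 61 cytosolic ribosomal protein genes and 2 of 24 import genes, and no import gene was lower. Of all genes 16.8% were higher and 9.2% lower in these libraries. In libraries 1, 2, 5 and 6 alone no assembly factor was higher and 7 mitochondrial ribosomal protein genes were lower, against 6.7% and 10.7% of all genes. The regulators had 4 lower and 0 higher in libraries 1, 2, 5 and 6, and 2 lower and 1 higher in libraries 7, 8, 11 and 12. With TMM scaling 4 assembly factors were higher, against 15.7% of all genes. Lower with it were 9 mitochondrial and 5 cytosolic ribosomal protein genes, against 16.2% of all genes. With the length trend removed 5 glycolysis genes and 4 assembly factors were higher, and 5 cytosolic ribosomal protein genes were lower. Of all genes 17.6% were higher and 17.7% lower then. Centred on the members 1 assembly factor and no cytosolic ribosomal protein gene was lower, against 6.7% of all genes. The filter of 5 RPKM left 5 hypoxia genes to test, of which none was higher. Ndrg1 (mean 4.67 in the null and 1.84 in the wild type) and Egln3 (3.94 and 2.69) were not tested there.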

How the data were processed

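Polyadenylated RNA was sequenced as single-end reads of 51 bases from stranded (dUTP) libraries after 9 PCR cycles, per the labels' protocols. STAR, featureCounts, edgeR and the genome build mm10 are named in the submitters' processing notes. Versions, annotation, the treatment of reads with several matches and the use of strand in counting are not given in the sources that were used here. The deposited table gives RPKM for each library, per the file headers. Beside these stand, per the file headers, the authors' log2 fold change, their average log2 CPM, and a deposited p-value and FDR for each gene. Column names gave the genotype ("Germline" was read as the Gsx2 null), and 0 columns were left out.

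The fit used limma 3.58.1 (R 4.3.3) on log2(RPKM + 1), two-sided, with a genotype term and an intensity trend, over the 11395 genes whose mean RPKM reached 1 in the null or the wild type (1448 did not). The design had foreseen this test for a table without counts. The fit was tested on simulated data in which genes varied independently of each other. Those data held no shift shared by genes within a library, so the test does not cover the library pattern described above. RPKM values move in steps worth 1 read, and these steps gave back whole reads for 100% of listed genes within 1e-06 of a read; the reads set the depth and entered the scalings and limma voom. The length trend was a lowess curve (span 0.3) of each library's deviations on counted bases. Paralogue ratios were tested by exact permutation of the libraries. Sequence sharing was counted in 51-base windows of the shortest APPRIS principal transcript of each gene.

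The members and gene lists were chosen with earlier results of these data known, so no count over them is independent support. Genes named with all values were, per complex, up to 5 past the threshold, the 2 with the highest mean RPKM and the paralogue pairs, which gave 20 genes, and up to 3 called genes of each list. Sdha, Uqcrb, Ndufs5, Ndufs6, Ndufv3, Ndufa5, Ndufa12, Cox5a, Cox7c, Atp5f1, Higd2a, BC002163 and the list genes beyond those were named after their values were seen. The alternatives tried were pseudocounts of 0.1 and 5, no filter and a filter of 5 RPKM, other scalings, voom, robust empirical Bayes, leaving out each library, and terms or subsets by column number. Scaling by total reads, removal of the length trend, centring on the members and the interaction were added after the data were seen. Lists whose results stand here once: of 7 endothelial markers 3 fell, of 4 tested microglial and 2 tested meningeal markers none passed, and of the choroid plexus markers 1 of 1 tested, Otx2, fell. Over all genes tested 13.8% rose and 14.6% fell. Values of some single list genes are not reported here.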

Additional observations from a re-analysis of the deposited data

Results flagged for a closer look

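In null library 6 the log2 ratio of Cox7a2l to Cox7a2 was -1.023, while null 5, 11 and 12 lay between -1.24 and -1.22; the gap to the nearest was 0.892 of the group's range. In the same library the log2 ratio of Ndufa4l2 to Ndufa4 was -7.147, while the other null libraries lay between -6.91 and -6.89 (0.892 of the range), and Ndufa4l2 had 21 reads there. Over the 68 groups of 4 values examined, chance flags about 1 in 20.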

How the results depend on the processing

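No paired analysis was possible because the numbers in the column names are in no label. Not run were the planned edgeR quasi-likelihood and DESeq2 tests on recovered reads, which were kept for tables deposited as counts (limma voom was run on those reads), and a block by replicate number. Over the 73 genes, counts of 0 higher and 0 lower became 4 and 5 with the length trend removed (complex I 4, III 2, IV 2, V 1), 15 and 0 in libraries 7, 8, 11 and 12 alone (I 9, III 2, IV 2, V 2), 0 and 1 in libraries 1, 2, 5 and 6 alone (V 1), and 1 and 0 without the filter, where Cox7a1 passed (IV 1; 0.30 ± 0.09 SE, adjusted p = 0.0328, 25.9% of all genes called). They became 0 and 1 (complex V, Atp5b) with TMM, median-of-ratios, upper quartile and total reads scaling and with voom. Leaving out single libraries gave 0 to 1 higher and 0 to 1 lower, and 0 to 1 in complexes I, III and IV; the calls were Cox7a2l without wild type 1 (25.8% of all genes called), Ndufs6 without null 11 and Uqcrb without null 12. The cause was not tested. The other pseudocounts, the filter of 5 RPKM, robust empirical Bayes and the term for column numbers gave 0 and 0. So did centring on the members, which takes out any shift they share and could not have shown one.

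The median log2 difference, -0.03, was -0.18 in libraries 1, 2, 5 and 6 (complex II -0.24, III -0.18, V -0.24), while in libraries 7, 8, 11 and 12 complexes II and V had 0.034 and 0.067. It ran from -0.09 to 0.02 when single libraries were left out. Some differences that were uncalled over all libraries changed sign. In libraries 7, 8, 11 and 12 they were 0.10 for Ndufb9, 0.19 for Ndufa3 (called there), 0.048 for Sdhb, 0.020 for Sdhc, 0.012 for Cox4i1, 0.0035 for Atp5a1, 0.11 for Atp5s, 0.064 for Cox7a2 and -0.11 for Ndufa4l2. In libraries 1, 2, 5 and 6 they were -0.20 for Uqcrh, -0.18 for Cox6b1, -0.17 for Atp5sl, -0.022 for Cox7a2l and -0.082 for Ndufa4. Centred on the members, Ndufa3 had 0.0012 and Atp5s 0.0043. With single libraries left out, ranges crossing 0 were -0.10 to 0.016 for Ndufb9, -0.11 to 0.067 for Ndufa3, -0.045 to 0.10 for Uqcrh, -0.055 to 0.078 for Cox6b1, -0.020 to 0.098 for Atp5sl, -0.13 to 0.058 for Atp5s, -0.057 to 0.19 for Ndufa4l2, -0.035 to 0.065 for Ndufa4, -0.18 to 0.25 for the ratio of Cox4i2 to Cox4i1 and -0.082 to 0.33 for that of Ndufa4l2 to Ndufa4. The ratio of Cox7a2l to Cox7a2 kept its sign, from 0.20 to 0.29, and its unadjusted exact permutation p was above 0.05 with any 1 null library left out. The null libraries that stayed were still all above the wild type. The unadjusted result therefore depended on each null library, although the order of the libraries held. Depth limits the genes with few reads, Cox7a1, Cox4i2, Cox7c, Cox6b2 and Ndufa4l2, where 1 read moves a value by several percent or more.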
